A study of Mus musculus with 6 samples.

Results

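The transcripts described here encode steroid dehydrogenases and a steroid carrier of mouse liver, and are 5 of the 389 rows of the deposited table, taken by their gene symbols. Hsd3b5, Hsd3b2, Hsd3b3 and Akr1c14 encode steroid dehydrogenases, and Serpina6 encodes corticosteroid-binding globulin. The table compared whole-body Usp28 knockout livers (KO, 3 samples) with Usp28 wildtype livers (WT, 3 samples). Both genotypes ate a methionine-choline deficient (MCD) diet, which induces steatohepatitis, from 8 weeks of age and for 4 weeks, so no group on an ordinary diet enters any comparison. Usp28 encodes a deubiquitinase, and the deletion is not limited to hepatocytes. Sex, strain and feeding state are not in the labels, which also do not say whether samples of one genotype came from separate animals. The spread between samples may therefore be partly technical.

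Enzymes of the 3β-hydroxysteroid dehydrogenase family act on the hydroxyl or keto group at carbon 3 of steroids. In mouse the HSD3B2 and HSD3B3 proteins belong to the classical branch, which uses NAD to turn pregnenolone and related steroids into progesterone and its relatives. HSD3B5 belongs to a branch that works mainly as a ketosteroid reductase with NADPH, and Hsd3b5 is known in mouse as a strongly male-biased liver transcript under growth hormone control. AKR1C14 is a 3α-hydroxysteroid dehydrogenase of the aldo-keto reductase family and inactivates steroid hormones. Corticosteroid-binding globulin is a serpin without protease inhibitor function, secreted by hepatocytes, that carries glucocorticoids in blood.

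The members were chosen because they differed between KO and WT in these same samples, so their differences are given as descriptions, without a test. All 389 rows had been selected by the authors on that contrast: in the authors' deposited table the smallest absolute log2 fold change was 1.004 and the largest FDR 0.0494. In the authors' deposited table the log2 fold change of KO over WT was 1.52 for Hsd3b3, the member nearest to that limit. It was 1.57 for Hsd3b2, 1.76 for Akr1c14, 1.91 for Serpina6 and 5.42 for Hsd3b5, the highest of all rows, in the authors' deposited table. Rows outside the limit were not analysed here. The edgeR adjusted p-values given below for other genes were taken over the 389 selected rows, which makes them too small. A gene said not to pass missed 0.05 among these rows. Adjusted over the 16200 genes implied by the authors' p-values and FDR, 5 rows passed in edgeR, all lower in KO. Usp28 itself had no row and was not analysed here, so its level could not be set against the genotype labels. No hepatocyte marker from a list of 11 had a row, so the tissue label was not checked either. Depth, recovered from counts and FPKM (fragments per kilobase of transcript, scaled to depth), was 20860000 to 22130000 reads in KO and 20350000 to 24150000 reads in WT.

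The Hsd3b genes lie in one cluster on the minus strand of chromosome 3 (GRCm38, GENCODE M21). Hsd3b5 (ENSMUSG00000038092) spans 98618634 to 98630252, Hsd3b2 (ENSMUSG00000063730) 98709255 to 98724543 and Hsd3b3 (ENSMUSG00000062410) 98741523 to 98763127. Hsd3b1, Hsd3b4 and Hsd3b6 of the same cluster had no row. Paralogs this alike can exchange reads, so a stretch of coding sequence is shown from the region where Hsd3b2 and Hsd3b3 cannot be told apart. It covers bases 153 to 242 of each coding sequence, counted from the A of the start codon, within 1 exon. Capitals mark the 18 of 90 bases at which Hsd3b5 has another base than the other two.
Hsd3b2, chr3:98713496-98713585, minus strand: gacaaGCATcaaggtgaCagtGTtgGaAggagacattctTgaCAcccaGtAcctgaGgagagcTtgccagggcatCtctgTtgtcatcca
Hsd3b3, chr3:98743891-98743980, minus strand: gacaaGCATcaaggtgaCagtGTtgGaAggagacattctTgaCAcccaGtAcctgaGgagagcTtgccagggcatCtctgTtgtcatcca
Hsd3b5, chr3:98622071-98622160, minus strand: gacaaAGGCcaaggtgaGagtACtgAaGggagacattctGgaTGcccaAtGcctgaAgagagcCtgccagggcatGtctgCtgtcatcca

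The Hsd3b2 and Hsd3b3 lines are identical, and the identical run they belong to is 228 bases long. Over the 1119 coding bases Hsd3b2 and Hsd3b3 shared 95.1% of aligned bases, while Hsd3b5 shared 80.8% with Hsd3b2 and 81.0% with Hsd3b3. Among the Hsd3b genes aligned, the nearest to Hsd3b5 was Hsd3b4 (95.2%), and Hsd3b6 shared 94.4% with Hsd3b2 and 94.5% with Hsd3b3. The predicted genes Gm10681 and Gm4450 of the same cluster were not aligned. Read length is not given in the sources used here, so every stretch of 50, 100 or 150 bases in the annotated transcripts was looked up in all other genes' transcripts. At 100 bases, 205 of 3695 stretches of Hsd3b2 and 205 of 6427 of Hsd3b3 were common to both genes, and 0 of either were found in Hsd3b5. At 50 bases Hsd3b5 still shared 0 stretches with Hsd3b2 and 0 with Hsd3b3, but 273 of its 1500 were also in Hsd3b4. Counts of Hsd3b2 and Hsd3b3 are thus uncertain toward each other and toward Hsd3b6 and Zfp697. Those of Hsd3b2 are also uncertain toward genes outside the cluster, such as Gm13722 (189 stretches at 50 bases) and D10Wsu102e (166). Those of Hsd3b5 are uncertain toward Hsd3b4 and the predicted genes Gm10681 and Gm4450. At 50 bases the share found in any other gene was 26.9% for Hsd3b2, 8.73% for Hsd3b3 and 21.2% for Hsd3b5. At 100 bases Hsd3b3 shared 93 stretches with Zfp697 and 56 with Hsd3b6. Hsd3b2 shared 6 with Zfp697, 48 with Hsd3b6 and 32 with Wdr59 at that length. Serpina6 shared 0 of its stretches with any other gene at each of the 3 lengths, and Akr1c14 shared 5.80% at 50 bases, all with the predicted gene Gm18857.

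The start regions of the Hsd3b genes are shown because the 3 transcripts were all higher in KO and the regions are unequally related. The 300 bases are from RefSeq (GRCm38.p6), 250 before and 50 after each RefSeq start. For Hsd3b2 and Hsd3b3 the window covers the GENCODE start given above. The RefSeq start of Hsd3b5 lies upstream of the GENCODE span given above, so its window is not at the start of the GENCODE transcript. The capitals in Hsd3b5 and Hsd3b3 mark runs of at least 10 bases found in both, and those in Hsd3b2 mark the run of at least 10 bases it has in common with Hsd3b3. A run of 19 bases common to Hsd3b2 and Hsd3b5 is left in lower case.
Hsd3b5, chr3:98645485-98645784, minus strand: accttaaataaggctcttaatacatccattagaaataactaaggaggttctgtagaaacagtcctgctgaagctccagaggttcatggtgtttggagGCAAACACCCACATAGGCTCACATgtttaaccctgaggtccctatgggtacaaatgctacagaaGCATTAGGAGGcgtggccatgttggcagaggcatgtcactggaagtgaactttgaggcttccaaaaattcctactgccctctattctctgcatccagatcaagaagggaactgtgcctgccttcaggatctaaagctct
Hsd3b3, chr3:98763079-98763378, minus strand: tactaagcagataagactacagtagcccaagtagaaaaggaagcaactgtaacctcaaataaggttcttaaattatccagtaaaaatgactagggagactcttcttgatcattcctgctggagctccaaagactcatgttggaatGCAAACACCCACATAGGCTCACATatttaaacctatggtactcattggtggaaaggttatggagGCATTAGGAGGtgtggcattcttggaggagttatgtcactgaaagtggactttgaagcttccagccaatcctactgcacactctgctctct
Hsd3b2, chr3:98724494-98724793, minus strand: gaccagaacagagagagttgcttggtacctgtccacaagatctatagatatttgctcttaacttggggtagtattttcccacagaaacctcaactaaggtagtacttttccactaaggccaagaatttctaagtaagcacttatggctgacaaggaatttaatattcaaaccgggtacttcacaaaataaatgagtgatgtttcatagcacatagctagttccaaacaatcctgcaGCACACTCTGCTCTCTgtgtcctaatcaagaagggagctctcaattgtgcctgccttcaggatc

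In these windows Hsd3b5 matched Hsd3b3 at 77.1% of 249 aligned bases, with a common run of 24 bases. Hsd3b5 matched Hsd3b2 at 58.2% of 280 aligned bases, with a common run of 19 bases. That share lay between those of Hsd3b5 (55.3%) and Hsd3b2 (58.7%) with the unrelated Akr1c14, where the longest common run was 8 bases. Hsd3b2 matched Hsd3b3 at 53.0% of 281 aligned bases, a share no higher than the 58.8% between Hsd3b3 and the unrelated Akr1c14. Their common run of 16 bases ends the Hsd3b3 window but lies further inside the Hsd3b2 window. That alignment did not line the run up, so the share depends on where the windows were placed. A second annotated start of Hsd3b3, at chr3:98762361-98762660, matched the printed one at 99.3% of 299 aligned bases. Of 4 motifs searched on both strands, 1 was found once, overlapping no other match: AGAACA, the half-site of the glucocorticoid receptor, at base -246 from the Hsd3b2 start. It occurs in 19.0% of all promoters of that length. TTCNNNGAA (a STAT5 motif, in 8.30% of promoters), AGGTCA (a nuclear receptor half-site, in 16.3%) and TATAAA (in 13.6%) were not among the letters of the windows of Hsd3b5, Hsd3b2, Hsd3b3 or Akr1c14. The Akr1c14 window, chr13:4059341-4059640 on the plus strand, lies inside the GENCODE span of that gene (4049011 to 4090688). It is not at the start of that span. Of the 5 members, 4 had an entry in the promoter table, and Serpina6 had none.

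Hsd3b5, the ketosteroid reductase, was nearly absent from WT livers and present in all KO livers. It had 190, 42 and 165 counts in KO replicates 1, 2 and 3, against 1, 1 and 7 counts in WT replicates 1, 2 and 3. In FPKM this was 5.88, 1.23 and 4.88 in KO and 0.03, 0.03 and 0.22 in WT. KO replicate 2 lay well below the other KO samples and still 5.59-fold above the highest WT sample in FPKM. Summed over samples, 397 KO counts stood against 9 WT counts, a ratio of 44.2 for equal depth with an exact 95% interval of 23.0 to 97.3, which covers counting error only. The edgeR log2 fold change was 5.40 ± 0.85 (SE, n = 3 each), and without WT replicate 3 it was 6.93. In a bulk sample fewer cells expressing a gene and less RNA per cell cannot be told apart, and this holds for each transcript below. By mean FPKM Hsd3b5 ranked 201 of 389 rows in KO and 388 in WT.

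Hsd3b3, a dehydrogenase of the classical branch, was the most abundant of the Hsd3b transcripts with a row in every sample. Its level was 131.62, 100.04 and 102.63 FPKM in KO replicates 1, 2 and 3, against 22.12, 30.48 and 64.19 FPKM in WT replicates 1, 2 and 3. The genotypes did not overlap, but WT replicate 3 stood well above the other WT samples and the lowest KO sample was only 1.56-fold above it. The means were 111 ± 17.5 FPKM in KO and 38.9 ± 22.3 FPKM in WT (SD, n = 3 each). On counts the edgeR log2 fold change was 1.54 ± 0.41 (SE), and 2.10 without WT replicate 3. Hsd3b3 made up 89.5% to 93.8% of the summed FPKM of Hsd3b2, Hsd3b3 and Hsd3b5 in KO and 93.2% to 95.6% in WT.

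Hsd3b2, which encodes the other classical enzyme, had 383, 331 and 388 counts in KO replicates 1, 2 and 3, against 102, 95 and 159 counts in WT replicates 1, 2 and 3. In FPKM these were 7.76, 5.34 and 7.20 in KO and 1.58, 1.37 and 3.89 in WT. WT replicate 3 was again the highest WT sample, and its distance to KO depended on the unit. As counts scaled to depth the lowest KO sample was 1.91-fold above WT replicate 3, and in FPKM 1.37-fold above it. The edgeR log2 fold change was 1.61 ± 0.34 (SE, n = 3 each), and 1.93 without WT replicate 3.

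**Figure D1:**
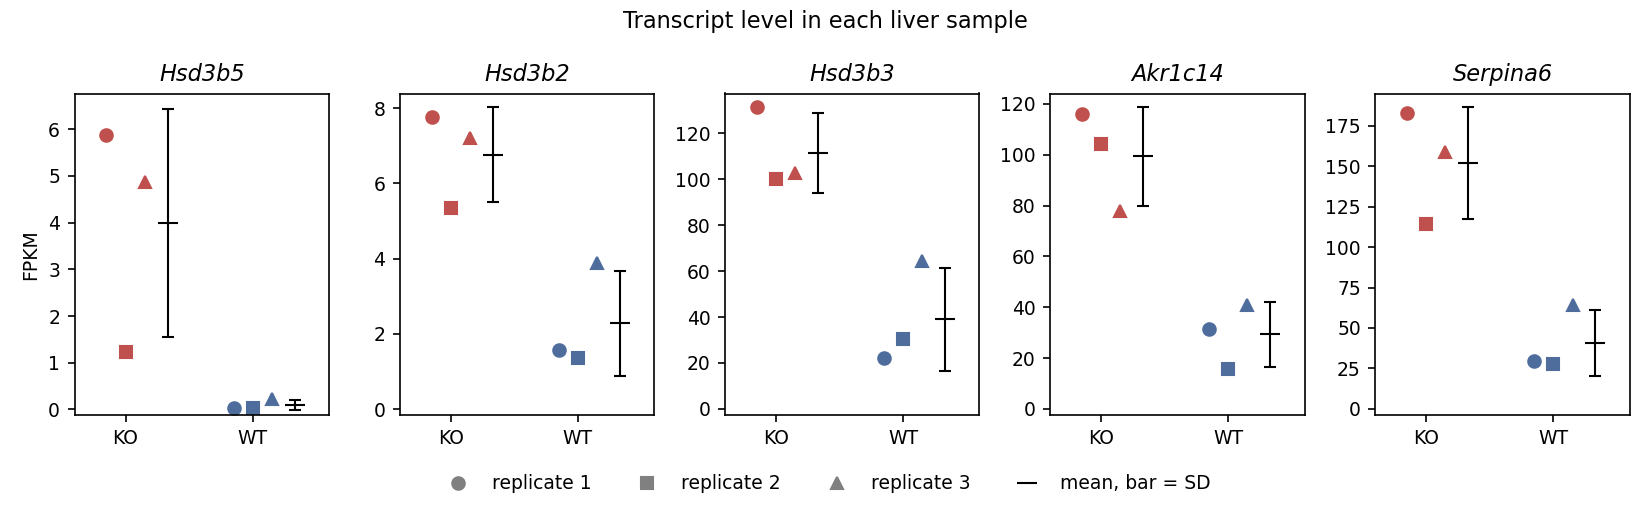
Level in FPKM (linear axes, one scale per gene) of each transcript in each KO and WT liver sample, with the mean and SD of 3 samples beside the points. KO and WT do not overlap for any of the 5 (nor in 93.3% of all listed rows), WT replicate 3 (triangle) is the highest WT sample of each, and Hsd3b5 spans 1.23 to 5.88 FPKM in KO against 0.03 to 0.22 FPKM in WT.

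The difference between the units can be written as the transcript length that the count and FPKM of Hsd3b2 imply. A count divided by its FPKM and by the depth gives the length behind the FPKM if both rest on the same reads. Whether they do is not stated in the sources used here, so this length restates the difference and does not explain it. For Hsd3b2 that length was 2366, 2801 and 2470 bases in KO replicates 1, 2 and 3, and 3169, 2871 and 2009 bases in WT replicates 1, 2 and 3. WT replicate 1 was the longest and WT replicate 3 the shortest of the 6, and the genotypes overlapped. GENCODE M21 lists 3 transcripts of Hsd3b2 between 1122 and 3695 bases long. For Serpina6 the length was 1605 bases in each sample, the length of its longest annotated transcript, and for Hsd3b3 it lay between 1285 and 1358 bases. For Hsd3b5, with 1 annotated transcript of 1549 bases, it was 1543 to 1550 bases in KO. In WT it was 1380 to 1636 bases, where the rounding of FPKM to 0.01 weighs on values of 1 count. The cause of the spread in Hsd3b2 was not tested.

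**Figure D2:**
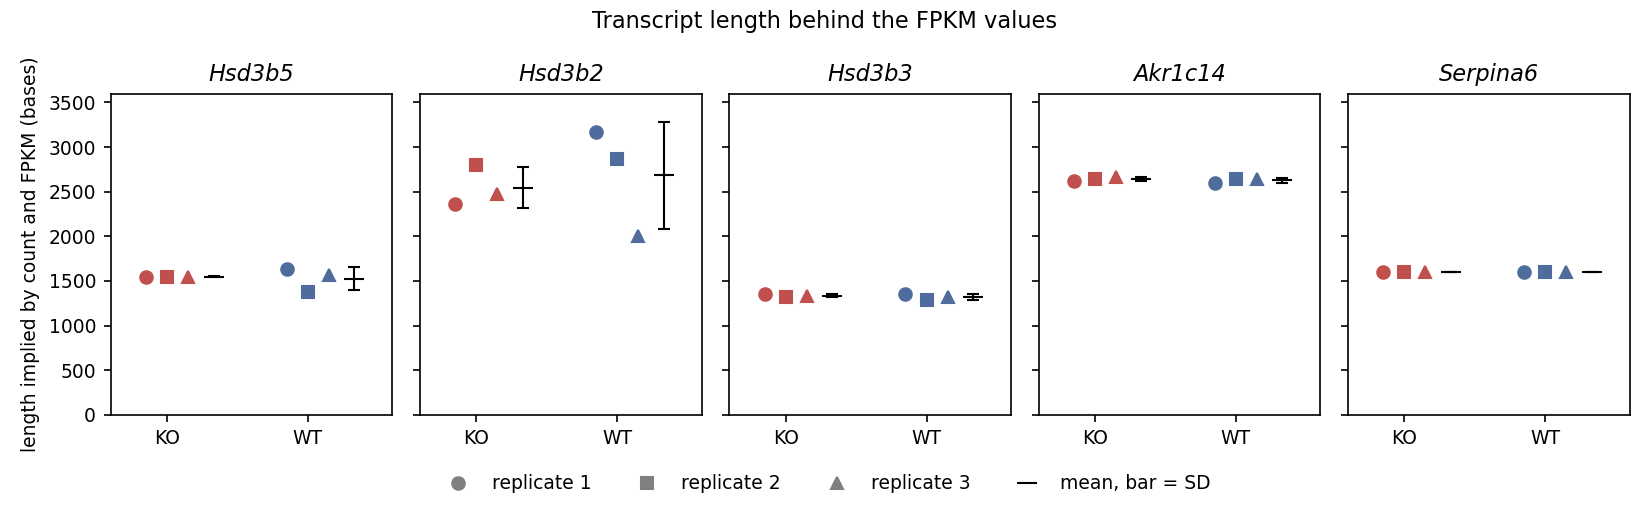
Transcript length in bases implied by each count, its FPKM and the sample's depth, per gene, genotype and replicate, with the mean and SD of 3 samples. Hsd3b2 varies from 2009 to 3169 bases while Serpina6 stays at 1605 bases.

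Ratios within a sample set the paralogs against each other without regard to depth. Hsd3b3 had 9.68, 8.80 and 7.72 counts per Hsd3b2 count in KO replicates 1, 2 and 3, and 6.0, 9.96 and 10.8 in WT replicates 1, 2 and 3. These ranges overlapped. Hsd3b5 had 51.2, 14.4 and 55.1 counts per 1000 counts of Hsd3b3 in KO replicates 1, 2 and 3, against 1.63, 1.06 and 4.06 in WT replicates 1, 2 and 3. Here the ranges did not overlap. Both genes were chosen on this contrast, and the higher KO ratio follows from the larger fold change of Hsd3b5. Its WT ratios rest on 1, 1 and 7 counts of Hsd3b5 in WT replicates 1, 2 and 3. KO replicate 2 had the lowest KO ratio, as it had the lowest Hsd3b5 level.

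**Figure D3:**
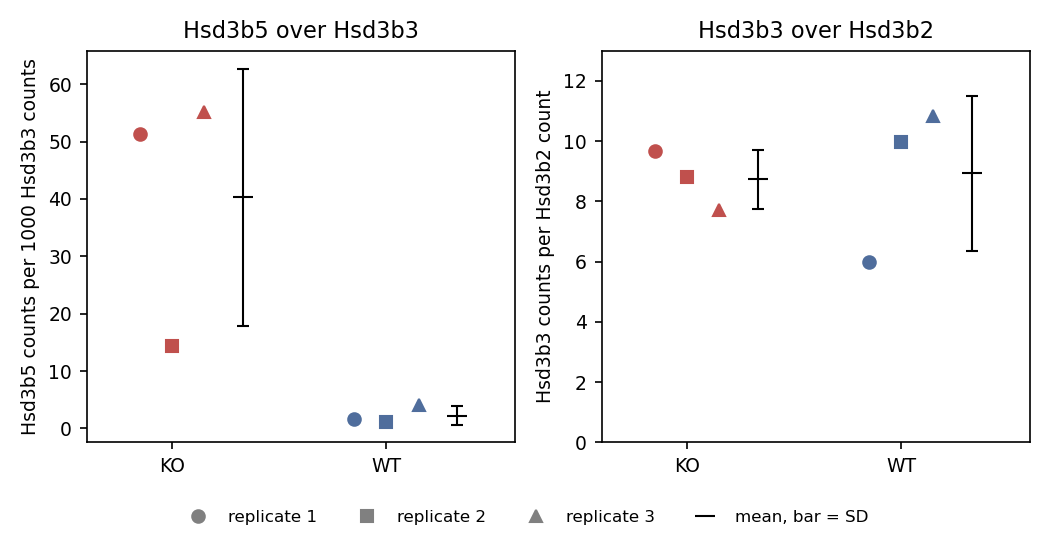
Counts of Hsd3b5 per 1000 counts of Hsd3b3 (left) and counts of Hsd3b3 per count of Hsd3b2 (right) in each KO and WT sample, with the mean and SD of 3 samples. The left ratio is 14.4 to 55.1 in KO against 1.06 to 4.06 in WT, and the right ratio overlaps between genotypes.

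Akr1c14 (ENSMUSG00000033715, chromosome 13, 4049011 to 4090688, plus strand), the 3α-hydroxysteroid dehydrogenase, was abundant in both genotypes. Its level was 115.88, 104.38 and 77.72 FPKM in KO replicates 1, 2 and 3, against 31.38, 15.69 and 40.91 FPKM in WT replicates 1, 2 and 3. The lowest KO sample, here KO replicate 3, was 1.90-fold above the highest WT sample. The means were 99.3 ± 19.6 FPKM in KO and 29.3 ± 12.7 FPKM in WT (SD, n = 3 each). From edgeR the log2 fold change was 1.77 ± 0.39 (SE), and 2.09 without WT replicate 3. The 8 other protein-coding aldo-keto reductase genes annotated around it, among them Akr1c6, Akr1c13, Akr1c18 and Akr1c20, had no row.

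Serpina6 (ENSMUSG00000060807, chromosome 12, 103646630 to 103657212, minus strand), the plasma carrier of glucocorticoids, had the highest mean level of the members in both genotypes. It stood at 182.5, 114.46 and 158.92 FPKM in KO replicates 1, 2 and 3, against 29.64, 27.86 and 64.02 FPKM in WT replicates 1, 2 and 3. KO replicate 2 was the lowest KO sample and lay 1.79-fold above WT replicate 3, the highest of WT. The means were 152 ± 34.5 FPKM in KO and 40.5 ± 20.4 FPKM in WT (SD, n = 3 each). The edgeR log2 fold change was 1.91 ± 0.40 (SE), and 2.40 without WT replicate 3. Of the 23 protein-coding serpin genes annotated in this part of chromosome 12, Serpina12 was the other one with a row. Serpina12, which encodes the adipokine vaspin, had 6.39, 7.11 and 6.40 FPKM in KO replicates 1, 2 and 3, against 1.5, 2.27 and 3.78 FPKM in WT replicates 1, 2 and 3. Its edgeR log2 fold change was 1.40 ± 0.36 (SE, adjusted p = 0.00873 over the listed rows). Adjusted over 16200 genes it did not pass, nor did any other row higher in KO.

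**Figure D4:**
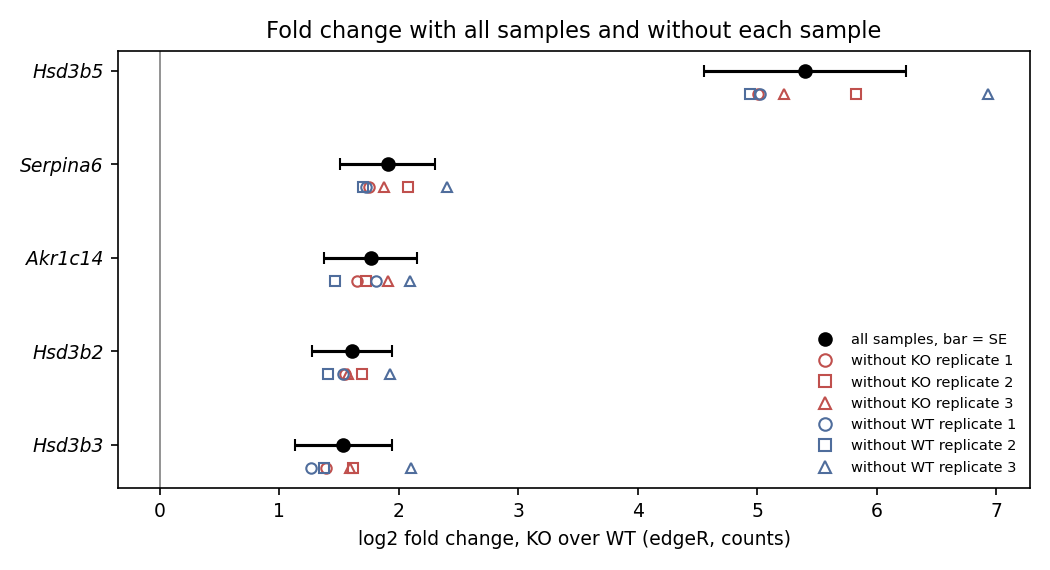
Log2 fold change of KO over WT from edgeR on counts, with its SE, for all 6 samples (black) and after leaving out each sample (open symbols below). Every value is above 0, and for each transcript the highest one is that without WT replicate 3, such as 6.93 for Hsd3b5 and 2.40 for Serpina6.

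By level per transcript length the order of means in KO was Serpina6, Hsd3b3, Akr1c14, Hsd3b2 and Hsd3b5, and in WT it was the same. The first 3 differed by less than their spread in WT, where their means were 40.5, 38.9 and 29.3 FPKM. In KO, Serpina6 overlapped with Hsd3b3, Hsd3b3 with Akr1c14 and Hsd3b2 with Hsd3b5. The gap between Akr1c14 and Hsd3b2 held in both genotypes, and in WT so did that between Hsd3b2 and Hsd3b5. All 5 members were higher in KO with no overlap in FPKM between genotypes. This was so in 93.3% of the listed rows (38.3% higher in KO and without overlap), and edgeR's adjusted p was below 0.05 in 99.7% of them (39.8% higher in KO). The rule used this contrast, so nothing is read from the count of members against those shares.

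The highest WT sample and the lowest KO sample were mostly the same ones across members. WT replicate 3 was the highest WT sample in depth-scaled counts for 5 of 5 members. It was so for 120 of the 156 rows with a higher KO mean, or 76.9% of them. KO replicate 2 was the lowest KO sample for 4 of the 5 members, all but Akr1c14, and for 42 of those 156 rows (26.9%). WT replicate 3 also stood apart in the summed level of markers of recruited macrophages. Of these markers 6 of 10 had a row and all 6 were lower in KO, as were 59.9% of all listed rows by edgeR's adjusted p. Their summed level was 20.7 to 28.9 FPKM in KO and 30.8, 67.1 and 168 FPKM in WT, with WT replicate 3 at 168. Cd14 and Lgals3 of these overlapped between genotypes. Without WT replicate 3 their edgeR log2 fold changes were -0.43 against -1.66 with it for Cd14 (adjusted p = 0.156 without it), and -0.70 against -1.69 for Lgals3 (adjusted p = 0.0641 without it). Mmp12 was at -2.32, and at -1.45 without WT replicate 3, and Itgax at -1.49, and at -0.94 without it. Gpnmb moved less, from -1.94 to -1.79 without WT replicate 3, and Itgam from -1.07 to -0.83. Other samples mattered too. Cd14 did not pass without KO replicate 1, 2 or 3, and Lgals3 did not without KO replicate 2. Itgax did not pass without KO replicate 1, and Itgam did not without KO replicate 2, KO replicate 3 or WT replicate 1. For Gpnmb WT replicate 3 (11.50 FPKM) was level with WT replicate 1 (11.26 FPKM). None of the 6 was at 0 in any sample. The listed rows together took 3.73% to 3.77% of reads in KO, and 8.74%, 8.82% and 5.45% in WT replicates 1, 2 and 3. Cldn4, 1 of 6 cholangiocyte markers, and Timp1, 1 of 8 stellate cell or fibroblast markers, had 3.25 and 3.55 FPKM in WT replicate 3, and at most 0.45 FPKM in any other sample. Without WT replicate 3 the edgeR log2 fold change of Cldn4 was -2.16, against -4.34 with it, and that of Timp1 -1.60, against -3.43, and Timp1 no longer passed (adjusted p = 0.0674). The part of these cell types in the member values was not tested. Markers of adrenal or gonadal steroid-making cells (9 genes) and of kidney tubule (7 genes) had no row.

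Within a genotype, the rows most like each member were found from deviations of log2(FPKM + 0.1) from the genotype mean over 6 samples, which share their libraries and depth. They were picked as the highest among all other listed rows, and over 6 values a high r can come from that search alone. Serpina6 and Hsd3b2 were among the nearest rows of each other (Pearson r = 0.989). Serpina6 was also close to Gm9747 (r = 0.990) and to Hamp2 (r = 0.975), a hepcidin gene. The rows nearest to Hsd3b2 after Serpina6 were Hamp2 (r = 0.987) and Ahnak2 (r = 0.979). Nearest to Hsd3b3 were Camk2n2 (r = 0.997), Mid1ip1 (r = 0.995) and S100a11 (r = 0.972). Nearest to Akr1c14 were Msmo1 (r = 0.999), a sterol oxidase gene of cholesterol synthesis, Ncam2 (r = 0.998) and 9130409I23Rik (r = 0.988). Those of Hsd3b5 were Gpc3 (r = 0.963), Gm9747 (r = 0.897) and Keg1 (r = 0.883), with 1 count behind its values in WT replicates 1 and 2. Gpc3, Ahnak2, Camk2n2 and S100a11 had negative log2 fold changes in the authors' deposited table, opposite to the members. The lowest value among the 10 member pairs was r = 0.302, between Hsd3b5 and Akr1c14.

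Other genes of steroid metabolism were read from lists. In the list of 36 steroid dehydrogenases and reductases, 5 had a row: 4 members, higher in KO, and Hsd17b11, lower in KO. Hsd17b11, a dehydrogenase of lipid droplets, had 69.75, 76.22 and 71.58 FPKM in KO replicates 1, 2 and 3, against 228.65, 200.21 and 69.64 FPKM in WT replicates 1, 2 and 3. WT replicate 3 lay at the KO level. KO over WT, the edgeR log2 fold change was -1.20 ± 0.42 (SE, adjusted p = 0.0200). Without any 1 sample other than WT replicate 3 it did not pass (edgeR adjusted p = 0.0579 to 0.0695). In the list of 34 steroid hydroxylases and conjugating enzymes, Cyp3a44 had a row. Cyp3a44, a female-biased P450 gene of mouse liver with close paralogs, had 2.93, 0.67 and 4.30 FPKM in KO replicates 1, 2 and 3, against 16.62, 4.81 and 76.95 FPKM in WT replicates 1, 2 and 3. WT replicate 3 was highest and WT replicate 2 close to KO. In edgeR its log2 fold change was -3.64 ± 0.96 (SE, adjusted p = 0.00899), and -2.02 without WT replicate 3. Nr0b2, which encodes the corepressor SHP, was the row among 18 steroid receptors and coregulators. It had 4.45, 13.53 and 5.75 FPKM in KO replicates 1, 2 and 3, against 14.62, 19.64 and 18.06 FPKM in WT replicates 1, 2 and 3. KO replicate 2 was near the WT range. Its edgeR log2 fold change was -1.14 ± 0.42 (SE, adjusted p = 0.0230). It no longer passed when KO replicate 1, KO replicate 3 or WT replicate 2 was left out (edgeR adjusted p = 0.0907, 0.0833 and 0.0563). The log2 fold change was -1.77 when KO replicate 2 was left out. In the deposited annotation 8 rows carried the KEGG pathway of steroid hormone biosynthesis. Of these 7 were higher in KO, against 39.8% of all listed rows by edgeR's adjusted p, and Cyp3a44 was lower. The 7 were 4 members, chosen for being higher in KO, and Cyp2c54, Cyp2c70 and Cyp7a1.

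Genes known to respond to glucocorticoids, the ligands carried by the product of Serpina6, were read from a list of 28 names. Of these, 6 had a row and all 6 were lower in KO, among them Mt2, Lcn2, Mt1, Cdkn1a and Por, where 59.9% of all listed rows were lower by edgeR's adjusted p. Mt1, a metallothionein gene, averaged 71.9 ± 17.1 FPKM in KO and 326 ± 81.5 FPKM in WT (SD, n = 3 each). By edgeR its log2 fold change was -2.17, without overlap between genotypes. Mt2, the other metallothionein gene, averaged 28.7 ± 4.44 FPKM in KO and 244 ± 107 FPKM in WT (log2 fold change -3.09). Lcn2, which encodes lipocalin 2, averaged 10.5 ± 2.22 FPKM in KO and 60.8 ± 51.1 FPKM in WT, and its edgeR log2 fold change of -2.54 was -1.58 without WT replicate 3. Cdkn1a overlapped between genotypes and did not pass without KO replicate 1, KO replicate 2 or WT replicate 2, and Por did not pass without KO replicate 1 or 3. Other known inputs act on several of these genes, among them inflammatory signals and metals. The other names, among them Fkbp5, Tsc22d3 and Per1, had no row.

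Hsd3b5 is a standard marker of the male pattern of mouse liver, so lists of sex-biased liver genes were read as well. Of 39 names listed as male-biased, 5 had a row and all 5 were higher in KO, as were 39.8% of all listed rows by edgeR's adjusted p. Of these, Hsd3b5, Hsd3b2 and Akr1c14 are members chosen for being higher in KO, which leaves Serpina12 and Mup21. Mup21, a major urinary protein gene in a family whose reads can be shared, had 36.12, 24.49 and 40.14 FPKM in KO replicates 1, 2 and 3, against 13.92, 18.28 and 11.76 FPKM in WT replicates 1, 2 and 3. WT replicate 3 was the lowest WT sample here, unlike for the members. Of 43 names listed as female-biased, 7 had a row, 2 higher in KO and 5 lower, against 39.8% and 59.9% of all listed rows. Hamp2 averaged 235 ± 64.2 FPKM in KO and 45.8 ± 35.1 FPKM in WT (SD, n = 3 each), and its edgeR log2 fold change of 2.36 was 3.19 without WT replicate 3. A1bg, the other one higher in KO, stood at 1.65, 2.96 and 1.63 FPKM in KO replicates 1, 2 and 3, against 0.40, 0.61 and 0.67 FPKM in WT replicates 1, 2 and 3. The 5 lower ones were Cyp3a44, Cyp4a14, Tox, Slco1a4 and Cd36, of which Cyp4a14 and Cd36 also answer to lipid-sensing nuclear receptors. Cyp4a14, a fatty acid hydroxylase gene with close paralogs, had 972.02, 951.88 and 949.46 FPKM in KO replicates 1, 2 and 3, against 4928.01, 4882.69 and 1009.94 FPKM in WT replicates 1, 2 and 3. WT replicate 3 lay close to KO, and the edgeR log2 fold change of -1.91 did not pass without KO replicate 2 (adjusted p = 0.0573). Tox, a transcription factor gene, averaged 0.87 ± 0.105 FPKM in KO and 3.25 ± 1.23 FPKM in WT (SD, n = 3 each; edgeR log2 fold change -1.90). Slco1a4 did not pass without KO replicate 2, and Cd36 without KO replicate 2, KO replicate 3 or WT replicate 1. In growth hormone signalling, 2 of 19 names had a row: Cish, which encodes a feedback inhibitor of STAT5 signalling, was higher in KO and Socs3 was lower. Cish had 3.94, 9.97 and 11.43 FPKM in KO replicates 1, 2 and 3, against 3.63, 3.39 and 4.72 FPKM in WT replicates 1, 2 and 3, so the genotypes overlapped. Its edgeR log2 fold change of 1.11 ± 0.40 (SE, adjusted p = 0.0217) did not pass without KO replicate 2 or 3 or without WT replicate 1 or 2 (adjusted p = 0.0529 to 0.0944). Socs3 averaged 1.73 ± 0.255 FPKM in KO and 3.99 ± 1.51 FPKM in WT (SD, n = 3 each), and its edgeR log2 fold change of -1.20 did not pass without WT replicate 1 (adjusted p = 0.0570). The sex chromosome genes Xist, Ddx3y, Uty, Kdm5d and Eif2s3y had no row.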

How the data were processed

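Liver RNA of 3 KO and 3 WT samples was sequenced from NEBNext Ultra libraries, per the labels. The authors deposited whole-number counts and FPKM per gene and sample, with their mean FPKM, log2 fold change, p-value and FDR, per the file headers. The submitters' processing notes name fastp 0.18.0, HISAT2, StringTie 1.3.1 and RSEM. Their roles and order, the genome build, strand use and the authors' test are not stated in the labels or headers used here. The members and gene lists were chosen with earlier results of these data known. Every list gene with a row was counted by direction, with values for up to 4 per list of largest absolute log2 fold change; 1 list gene is not reported here. For each member the 3 rows of highest within-genotype r were named.

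Depth was the median of count over FPKM and length for single-transcript genes of 50 counts and 1 FPKM or more (38 to 51 per library), scaled over 237 genes. All 389 rows were fitted in edgeR 4.0.16 (R 4.3.3, quasi-likelihood test) with that depth, no other scaling and no filter. P-values were adjusted by Benjamini-Hochberg over the listed rows, and selection on the same contrast makes them too small. SE is the absolute log2 fold change over the square root of F. On simulated data the fit called 45 of 100 rows with a true absolute log2 fold change of 1 and 95 of 100 at 2. It also called 3 of 189 unchanged rows, at an adjusted p below 0.05 throughout. Those changes were placed on rows drawn at random, so the simulation did not cover the selection of the listed rows. Replicate pairs differed by at least 46.0 in chi-square per degree of freedom, so none was a duplicate. Alternatives used limma 3.58.1 and DESeq2 1.42.0. IDs of 388 of 389 rows matched GENCODE M21 (GRCm38).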

Additional observations from a re-analysis of the deposited data

How the results depend on the processing

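All 5 members stayed higher in KO under every setting tried. Most listed rows are lower, so scalings that take most rows as unchanged raised the median row's log2 fold change by 0.58 (TMM) to 0.66 (RLE and DESeq2's own factors). Under TMM, RLE and DESeq2's own factors the log2 fold change was 2.24, 2.26 and 2.26 for Hsd3b2, 2.18, 2.15 and 2.15 for Hsd3b3, 2.40, 2.43 and 2.43 for Akr1c14, and 2.56, 2.55 and 2.55 for Serpina6. The value of Hsd3b5 was 4.28 from limma on log2(FPKM + 0.1) and 2.04 on log2(FPKM + 1), where the pseudocount exceeds most of its WT values, and it ran from 4.93 to 6.93 when 1 sample was left out. With a filter of at least 50 counts in at least 3 samples Hsd3b5 was not fitted. Rows past an adjusted p of 0.05 were 388 (155 higher, 233 lower in KO, 39.9% higher), 250 with TMM (62.4% higher), 236 with RLE (66.1% higher), 239 with DESeq2's own factors (65.3% higher) and 5, all lower, when adjusted over the 16200 genes implied by the authors' p-values and FDR. They ranged from 279 to 372 without 1 sample. With the replicate block, which no label ties to animals or batches (correlation of same-numbered samples 0.07, 0.11 and -0.02), 382 rows passed. The block moved no member beyond 1 SD of its replicates: Hsd3b2 was at 1.66, Hsd3b3 at 1.67, Hsd3b5 at 5.43, Akr1c14 at 1.86 and Serpina6 at 1.99. Among the list genes and cell type markers, Hsd17b11, Nr0b2, Por, Cdkn1a, Slco1a4, Cd36, Socs3, Itgam, Itgax, Lgals3 and Cd14 did not pass under TMM, RLE or DESeq2's own factors, nor Cyp4a14 under TMM or RLE. Depth limits Hsd3b5 most, with 9 counts over all WT samples.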
